A study of Mus musculus with 2 samples.

Results

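Toll-like receptors (TLRs), their co-receptors and the adaptor MyD88 were examined in splenocytes of GPI-immunized mice, over 10 genes: the co-receptor genes Cd14, Ly96 and Cd180, the receptor genes Tlr1, Tlr2, Tlr4, Tlr6, Tlr7 and Tlr9, and Myd88. They were chosen by gene symbol among the probe sets (groups of short oligonucleotide probes summarized as 1 signal) that the platform annotation pairs with exactly 1 symbol. This gave 13 of 20380 such probe sets, and 10 of 12393 genes. Each group was read with a single array (Affymetrix GeneChip, mouse 430A 2.0). The GPI-immunized group consisted of male mice of the DBA/1 strain, aged between 6 and 8 weeks, that received 300 μg of human glucose-6-phosphate isomerase (GPI) fused to glutathione S-transferase (GST), and the control group of mice of the same sex, strain and age that received 100 μg of GST. Both antigens were injected into the skin in complete Freund's adjuvant, and spleens were taken on day 10. Since the adjuvant contains killed mycobacteria, and both groups received it, the comparison does not show the effect of the adjuvant. The methods give 3 spleens per group and do not state if they were pooled for the 1 array.

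TLRs recognize molecules of microbes at the cell surface or in endosomes. TLR4 senses bacterial lipopolysaccharide (LPS), which the LPS-binding protein LBP hands to CD14, and CD14 to the complex of TLR4 and MD-2 (the product of Ly96). TLR2 pairs with TLR1 or TLR6 to sense bacterial lipopeptides, for which CD14 is also a co-receptor, and TLR7 and TLR9 sense RNA and DNA in endosomes. All of these receptors signal through MyD88 to NF-κB and the mitogen-activated protein kinases. In the spleen, CD14 and TLR2 are best known from macrophages, monocytes and neutrophils, whereas CD180, TLR7 and TLR9 are also prominent in B cells, and TLR7 and TLR9 in plasmacytoid dendritic cells.

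The gene of CD14 stood apart from the rest, with Tlr2 and Myd88 next, and the other genes differed less between the arrays. The CD14 signal was 4.93-fold higher on the GPI-immunized array, Tlr2 2.38-fold and Myd88 1.94-fold. The signals of Tlr1, Ly96 and Tlr7 were lower, at 0.700, 0.740 and 0.800 times the control signal. There was 1 array per group and hence no replicate, so neither a test nor a p-value can be given, and every ratio describes these 2 arrays. The only yardstick is technical. Log2 ratios of different probe sets of one gene spread with an SD of 0.28 (2538 genes), a factor of 1.21, which holds no difference between mice or hybridizations.

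The starts of the genes for TLR2 and MyD88 are shown because these 2 genes had the highest ratios after Cd14. The sequences are the 250 bases before the start of the gene in RefSeq (GRCm38.p6), read on the strand of the gene. Capitals mark matches to the NF-κB consensus motif or to the core of an interferon response element, in which 2 GAAA repeats are separated by any 2 bases, searched on both strands.
Tlr2, chr3:83841609-83841858, minus strand: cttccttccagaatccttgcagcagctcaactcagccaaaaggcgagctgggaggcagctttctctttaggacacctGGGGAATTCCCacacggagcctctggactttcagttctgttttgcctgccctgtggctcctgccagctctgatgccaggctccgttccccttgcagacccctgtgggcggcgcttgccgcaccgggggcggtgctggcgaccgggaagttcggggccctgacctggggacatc
Myd88, chr9:119340019-119340268, minus strand: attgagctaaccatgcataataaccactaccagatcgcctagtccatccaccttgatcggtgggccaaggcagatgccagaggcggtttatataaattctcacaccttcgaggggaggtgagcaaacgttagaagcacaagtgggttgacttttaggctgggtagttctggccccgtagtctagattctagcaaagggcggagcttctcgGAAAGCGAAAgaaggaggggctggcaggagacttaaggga
The Tlr2 stretch in capitals, 173 to 163 bases before the start, holds 2 overlapping matches to the NF-κB consensus. The Myd88 stretch holds the interferon response core 40 to 31 bases before the start. Among all 32817 windows of the same length, 3.90% hold the NF-κB consensus and 2.97% the interferon response core. RefSeq promoters were matched for 6 of the 10 genes (Cd180, Myd88, Tlr1, Tlr2, Tlr6 and Tlr9), with 9 windows in all. Of these windows, 1 held the NF-κB consensus, that of Tlr2. The interferon response core was found in 2, that of Myd88 and 1 of the windows of Tlr6, where the matches were a pair that overlapped. An AP-1 motif (TGANTCA, in 6.75% of all windows) was found in 1, that of Tlr9. These matches describe letters in the windows, and the arrays do not bear on whether a factor bound there.

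The median signal of all probe sets other than controls was 51.8 in GPI-immunized splenocytes, against 48.65 in control splenocytes. Control probe sets for genes of Bacillus subtilis, a bacterium, which should have no target in mouse RNA, reached 7.2 on the GPI-immunized array, against 14.1 on the control one. A gene was represented by its brightest probe set (mean log2 signal of both arrays) and counted as higher from a ratio of 2 upwards, or as lower from 0.5 downwards, where either array gave 50.2 or more, which is the 50th percentile over both arrays. Over all genes, 6961 passed this limit, and their median log2 ratio was 0.06. The genes of spleen cells were present, among them the B cell gene Cd79a, with signals of 2076.5 in GPI-immunized splenocytes, against 2961.3 in control splenocytes, and the erythroid gene Alas2, with 2792.4 in GPI-immunized splenocytes, against 3508.2 in control splenocytes. Since whole splenocytes were read, more cells of a type and more RNA per cell cannot be told apart.

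Of the 10 genes, 9 passed the signal limit, and 2 of these, Cd14 and Tlr2, were counted as higher, against 2.23% of all genes that passed. None was counted as lower, against 0.445% of all genes, and the remaining 7 lay between. Tlr9 was the gene that did not pass. The ratios were above 1 for 4 of the 9 genes and below 1 for 5, with a median log2 ratio of -0.13. Of the 5, Tlr1 and Ly96 passed only through the control array, which gives a ratio below 1 by the rule. Cd180 and Tlr6 lay within the spread between probe sets, and the probe sets of Tlr7 disagreed in direction. The count below 1 therefore says little about a difference in that direction. The log2 ratios of the 9 genes spread with an SD of 0.95, against 0.40 over all genes that passed.

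**Figure D1:**
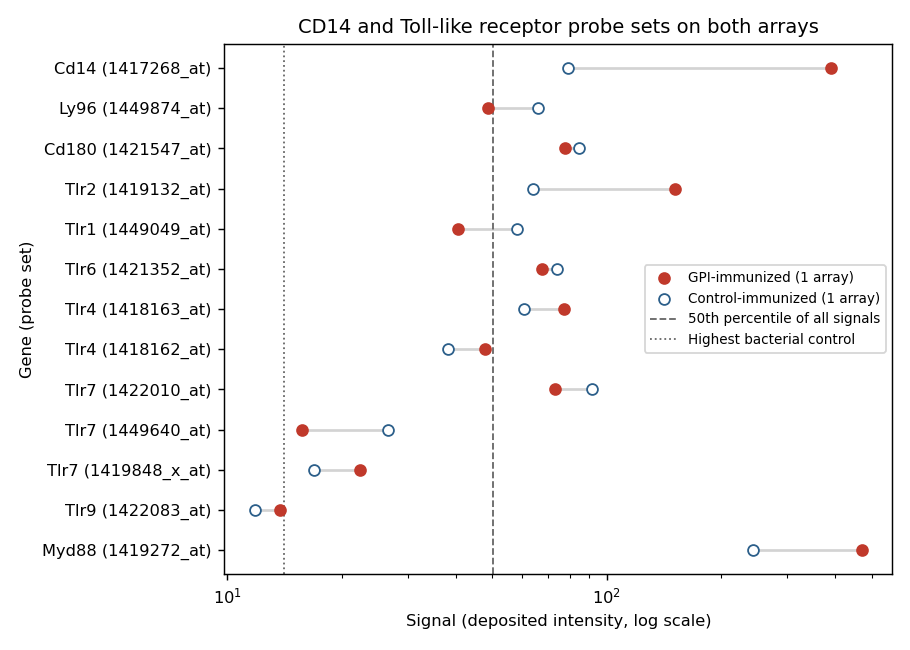
Signal (horizontal axis, deposited intensity on a log scale) of the 13 probe sets of the 10 genes (vertical axis) on the GPI-immunized array (filled) and the control array (open), with 1 array per group and no error bars. Cd14, Tlr2 and Myd88 lie to the right on the GPI-immunized array, while both Tlr9 signals (13.8 and 11.8) lie under 14.1, the highest bacterial control signal of the 2 arrays, which was on the control array.

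Among the co-receptors, CD14 had a signal of 390.4 in GPI-immunized splenocytes, against 79.2 in control splenocytes. Both signals were well above the bacterial controls. CD14 has no membrane-spanning domain of its own and delivers LPS and lipopeptides to the TLRs. Its log2 ratio of 2.30 was 8.29 times the SD between probe sets, and its ratio ranked 8 among the 6961 genes. A single probe set represents Cd14, so the ratio could not be compared with another probe set of the gene.

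MD-2, the protein that holds LPS in the TLR4 complex, differed the other way. Its gene Ly96 had a signal of 48.7 in GPI-immunized splenocytes, against 65.8 in control splenocytes, a log2 ratio of -0.43. The GPI-immunized signal lay under the 50th percentile and the control signal above it. Ly96 thus passed only through the control array, which gives a ratio below 1 by the rule. CD180 (RP105), a TLR-like receptor of B cells that signals with MD-1, had 77.5 in GPI-immunized splenocytes, against 84.8 in control splenocytes. This ratio of 0.914 lay within the spread between probe sets, and so did not stand out from technical variation.

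The surface receptors were divided. TLR2, the receptor of bacterial lipopeptides, had a signal of 151.8 in GPI-immunized splenocytes, against 63.9 in control splenocytes, a log2 ratio of 1.25 that ranked 87 among the 6961 genes. Its partners did not share this difference. Tlr1 had a signal of 40.6 in GPI-immunized splenocytes, against 58.0 in control splenocytes, a ratio of 0.700. It passed the signal limit only through the control array, and its ratio was 0.866 after low signals were raised to the 50th percentile. Tlr6 had 67.7 in GPI-immunized splenocytes, against 74.2 in control splenocytes, a ratio of 0.912 that lay within the spread between probe sets. Tlr1 and Tlr6 lie side by side on chromosome 5, with 0 protein-coding genes starting between them in RefSeq.

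TLR4, the receptor of LPS, was represented by a pair of probe sets, which gave nearly the same ratio. The brighter one had a signal of 77.2 in GPI-immunized splenocytes, against 60.6 in control splenocytes, a ratio of 1.27. The dimmer one, under the signal limit, had 47.8 in GPI-immunized splenocytes, against 38.1 in control splenocytes, a ratio of 1.25. The log2 ratios, 0.35 and 0.33, were slightly larger than the SD between probe sets. Under the 3 other scalings the brighter one had a ratio between 1.19 and 1.20, within the factor of 1.21 of that SD. Tlr4 thus did not clearly stand out from technical variation. Within the LPS receptor, Cd14, Tlr4 and Ly96 thus had 3 different ratios, of 4.93, 1.27 and 0.740.

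**Figure D2:**
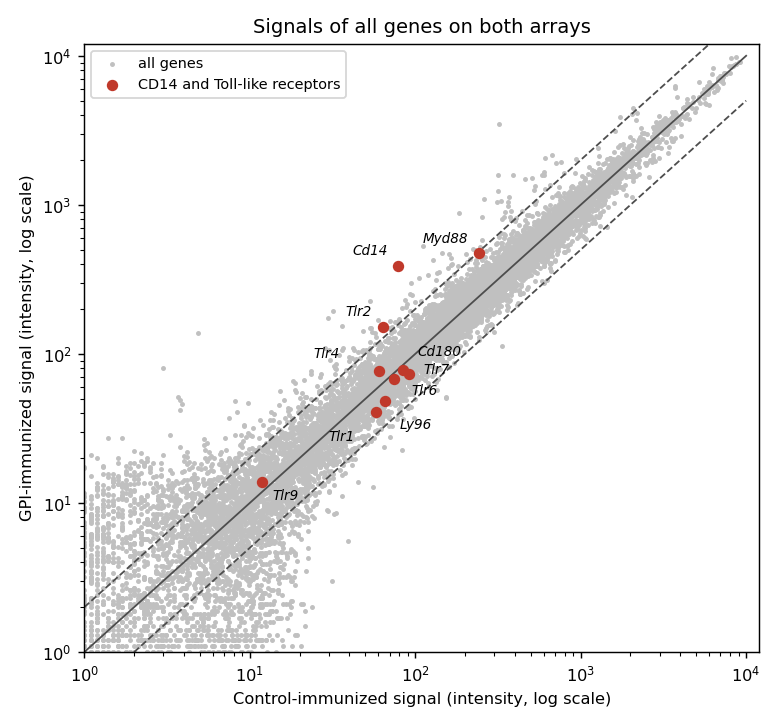
Signal on the GPI-immunized array (upwards) plotted over that on the control array (across), both as deposited and on log axes that start at 1, with 1 point per gene and 1 array per group. The solid line marks a ratio of 1 and the dashed lines ratios of 2 and 0.5. Cd14 (390.4 and 79.2) and Tlr2 (151.8 and 63.9) lie above the upper dashed line and Myd88 (471.9 and 242.9) just under it, while the 7 other genes lie around the solid line.

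Neither endosomal receptor gene was higher by the rule. TLR7, the receptor of single-stranded RNA, was read by 3 probe sets. The brightest had a signal of 73.0 in GPI-immunized splenocytes, against 91.3 in control splenocytes, a ratio of 0.800. The other 2, both under the signal limit, disagreed with each other. One had 15.7 in GPI-immunized splenocytes, against 26.5 in control splenocytes (ratio 0.592), and the other 22.4 in GPI-immunized splenocytes, against 16.9 in control splenocytes (ratio 1.33), although the annotation lists the same accession for both. The direction for Tlr7 therefore rests on its brightest probe set. TLR9, the receptor of unmethylated DNA, had signals of 13.8 in GPI-immunized splenocytes, against 11.8 in control splenocytes. The GPI-immunized signal lay above the highest bacterial control of its own array (7.2) and the control signal under that of its own (14.1). Both were far under the signal limit, and no ratio is read from them.

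The adaptor MyD88, which most TLRs and the interleukin-1 receptors use, had a signal of 471.9 in GPI-immunized splenocytes, against 242.9 in control splenocytes. The log2 ratio of 0.96 ranked 165 among the 6961 genes and was 3.45 times the SD between probe sets. It lay just under the 2-fold limit. A single probe set represents Myd88.

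The order of the 9 genes by ratio was Cd14, Tlr2, Myd88, Tlr4, Cd180, Tlr6, Tlr7, Ly96 and Tlr1. After low signals were raised to the 50th percentile, Tlr1 (0.866) lay above Tlr7 (0.800) and Ly96 (0.763), so the order of these 3 is not settled. The step from Cd14 to Tlr2 (log2 ratios of 2.30 and 1.25) exceeded the SD between probe sets, as did the step from Myd88 to Tlr4 (0.96 and 0.35). The step from Tlr2 to Myd88 was about as large as that SD, and Cd180 and Tlr6, at -0.13 each, were not distinguishable. The same order of Cd14, Tlr2 and Myd88 held under every scaling tried, and all 9 genes kept their side of a ratio of 1 when each array was divided by its median, after quantile normalization and after loess centring. These 3 scalings lowered every ratio, so the kept side says little for the genes below 1. Division by the median cannot change an order. In these 3 scalings the ratio of Cd14 was between 4.63 and 4.68, that of Tlr2 between 2.22 and 2.24, and that of Myd88 between 1.82 and 1.86.

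**Figure D3:**
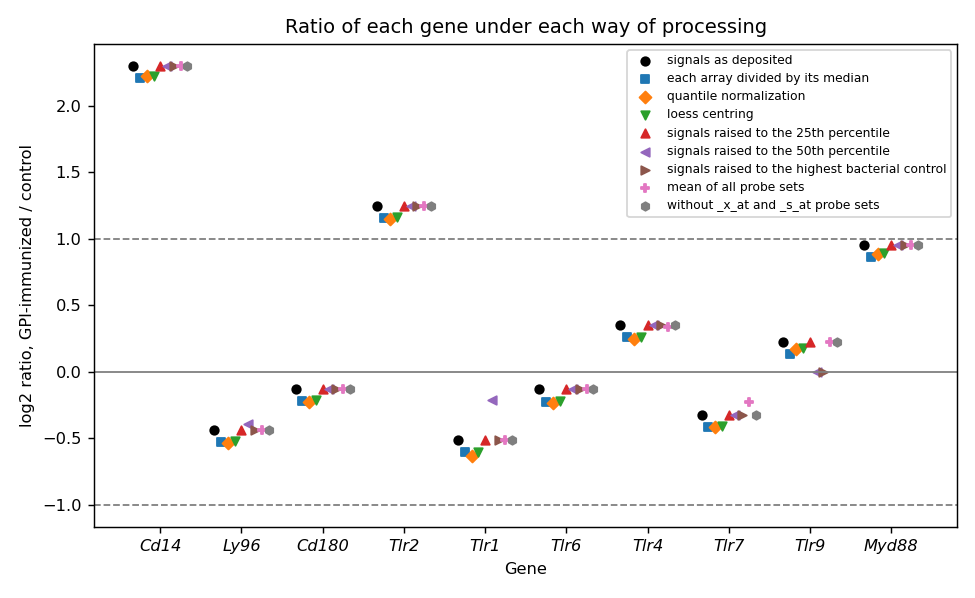
Log2 ratio, GPI-immunized over control (vertical axis), for each gene (horizontal axis), with 1 symbol for each way of processing the same 2 arrays and the 2-fold limits as dashed lines. Symbols show processing, not replicates. Cd14 and Tlr2 stay above the upper line and Myd88 under it, while Tlr1 moves up, to a ratio of 0.866, when signals are raised to the 50th percentile.

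The genes closest to Cd14 were sought by their distance in log2 signal over the 2 arrays, among all genes above the limit. The closest 5 were Pon3 (distance 0.46), a paraoxonase, Clec4d (0.51), a C-type lectin receptor of myeloid cells, Cd5l (0.63), a secreted protein of macrophages, Hspa1a (0.67), a heat shock protein whose gene has the near-identical copy Hspa1b, and Hdc (0.67), the enzyme that makes histamine. Clec4d had a signal of 320.7 in GPI-immunized splenocytes, against 106.0 in control splenocytes. Pon3 had 297.8 in GPI-immunized splenocytes, against 94.3 in control splenocytes. A likeness over 2 arrays says only that these genes had similar signals.

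The genes of proteins that load, escort and cleave the TLRs differed little, except for LBP. Of 15 genes of this list, 13 had a probe set and 12 passed the limit, with a median log2 ratio of -0.03. Of the 12, 1 was counted as higher and 0 as lower, against 2.23% and 0.445% of all genes that passed. Lbp, whose product hands LPS to CD14, had a signal of 148.3 in GPI-immunized splenocytes, against 53.6 in control splenocytes, a ratio of 2.77. Hence 2 of the LPS-handling genes, Lbp and Cd14, were counted as higher, while Tlr4 and Ly96 were not. Ly86 (MD-1, the partner of CD180) had 1400.3 in GPI-immunized splenocytes, against 1691.1 in control splenocytes, a ratio of 0.828 that lay beside the 0.914 of Cd180. The scavenger receptor Cd36, a co-receptor of TLR2 with TLR6, had a ratio of 0.770 and was below 1 on all 3 of its probe sets.

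Unc93b1, which carries TLR7 and TLR9 to endosomes, had 743.4 in GPI-immunized splenocytes, against 910.3 in control splenocytes, a ratio of 0.817, close to the 0.800 of Tlr7. The chaperones Hsp90b1 and Cnpy3 had ratios of 1.07 and 0.970, although the other probe set of Hsp90b1 gave 2.09. The cathepsins Ctss and Ctsb, endosomal proteases, had ratios of 0.837 and 0.929, and the legumain gene Lgmn 1.16. Slc15a4 and Ap3b1, needed for endosomal TLR traffic, had ratios of 0.990 and 1.09, and Tmed7, which escorts TLR4, 1.03. The probe sets of Ctsb (0.792 to 1.23) and of Tmed7 (0.418 to 1.21) disagreed in direction, and Ctsk stayed under the limit.

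Of 6 further TLR genes, 3 had a probe set (Tlr3, Tlr5 and Tlr8) and 1 passed the limit. Tlr3, the receptor of double-stranded RNA, had a signal of 46.3 in GPI-immunized splenocytes, against 56.3 in control splenocytes, a ratio of 0.822. Its other probe set gave a ratio of 1.12, so the direction is not settled. Tlr8, which lies beside Tlr7 on the X chromosome, had 29.0 in GPI-immunized splenocytes, against 18.4 in control splenocytes, and Tlr5, the receptor of flagellin, 14.1 in GPI-immunized splenocytes, against 10.5 in control splenocytes. These signals were under the limit.

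Downstream of the receptors, no gene was counted as higher or lower among the 16 proximal signalling genes above the limit (23 in the list, 17 with a probe set). The same held for the 18 NF-κB and kinase genes (23 in the list). Over all genes that passed, 2.23% were counted as higher and 0.445% as lower. At these shares, lists of this size hold few such genes or none, so the counts do not set the lists apart. The median log2 ratios of the lists were -0.01 and -0.05. Tirap, which bridges TLR2 and TLR4 to MyD88, was closest to the limit. It had a signal of 143.3 in GPI-immunized splenocytes, against 74.9 in control splenocytes, a ratio of 1.91, and its other probe set gave 1.82. On the brightest probe sets, Tirap and Myd88 thus had the highest ratios among the signalling genes above the limit. The ubiquitin ligase gene Traf6 had a ratio of 0.639, although its probe sets ranged up to 1.94, the kinase-binding protein Tab3 0.680, and the ubiquitin ligase Peli1 0.712. Among NF-κB genes, Rel had a ratio of 0.645, Ikbkg 0.671 and Relb 0.726, and the transcription factor Creb1 1.52 on its brightest probe set. Probe sets of 1 gene disagreed in direction for Ikbkg (0.671 to 1.20) and Creb1 (0.0667 to 1.52), among others. As the mean of all probe sets Traf6 had a ratio of 1.02 and Creb1 one of 0.563. Single probe sets of Ikbkb (0.965 to 3.19) and Mapk14 (0.481 to 2.23) crossed a 2-fold limit. As the mean of all probe sets, both lists still held no gene counted as higher or lower, against 3.0% and 1.03% of all genes.

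Of 21 negative regulators of TLR signalling, 16 had a probe set and 14 passed, with a median log2 ratio of -0.01. Of the 14, 0 were counted as higher or lower, which at the shares over all genes (2.23% and 0.445%) does not set them apart. Pirb, an inhibitory receptor of myeloid and B cells, had a ratio of 1.68, the repressor Atf3 1.60, the inhibitory receptor Sigirr 0.718 and the TRAF-binding protein Tank 0.524. Division by the median and quantile normalization brought Tank under 0.5. A list of genes that TLR ligands can induce held 31 symbols, of which Irg1 and Acod1 name the same gene. Of the 31, 30 had a probe set, and 8 had no signal above 14.1, the highest bacterial control of the control array. Of the 15 that passed, 5 were counted as higher and 0 as lower, against 2.23% and 0.445% of all genes that passed. The 5 were Clec4e (ratio 5.81), a C-type lectin receptor of mycobacterial glycolipid, the chemokine Cxcl2 (4.30), Ier3 (2.84), Il1b (2.71) and Socs3 (2.51), the last of which was named after its value was seen. Clec4e passed the limit only through the GPI-immunized array (173.1, against 29.8 in control splenocytes), and its ratio was 3.45 after low signals were raised to the 50th percentile. The other 10 lay between, among them Il12a at 0.577, Cd40 at 0.678, Ccl5 at 0.752 and Cd86 at 1.27 (0.952 on its other probe set), named after their values were seen. Of the 15, 9 had ratios above 1 and 6 below. The cytokine genes Tnf (32.8 in GPI-immunized splenocytes, against 36.8 in control splenocytes) and Il6 (9.4, against 7.2) were under the limit. They too were named after their values were seen. Ptgs2, also named after its values were seen, had a ratio of 1.76 on its brightest probe set and 3.53 on the other. As the mean of all probe sets, 6 genes of this list were counted as higher. The median log2 ratio of this list, 0.06, was close to that of all genes, and it was -0.03 after division by the median.

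**Figure D4:**
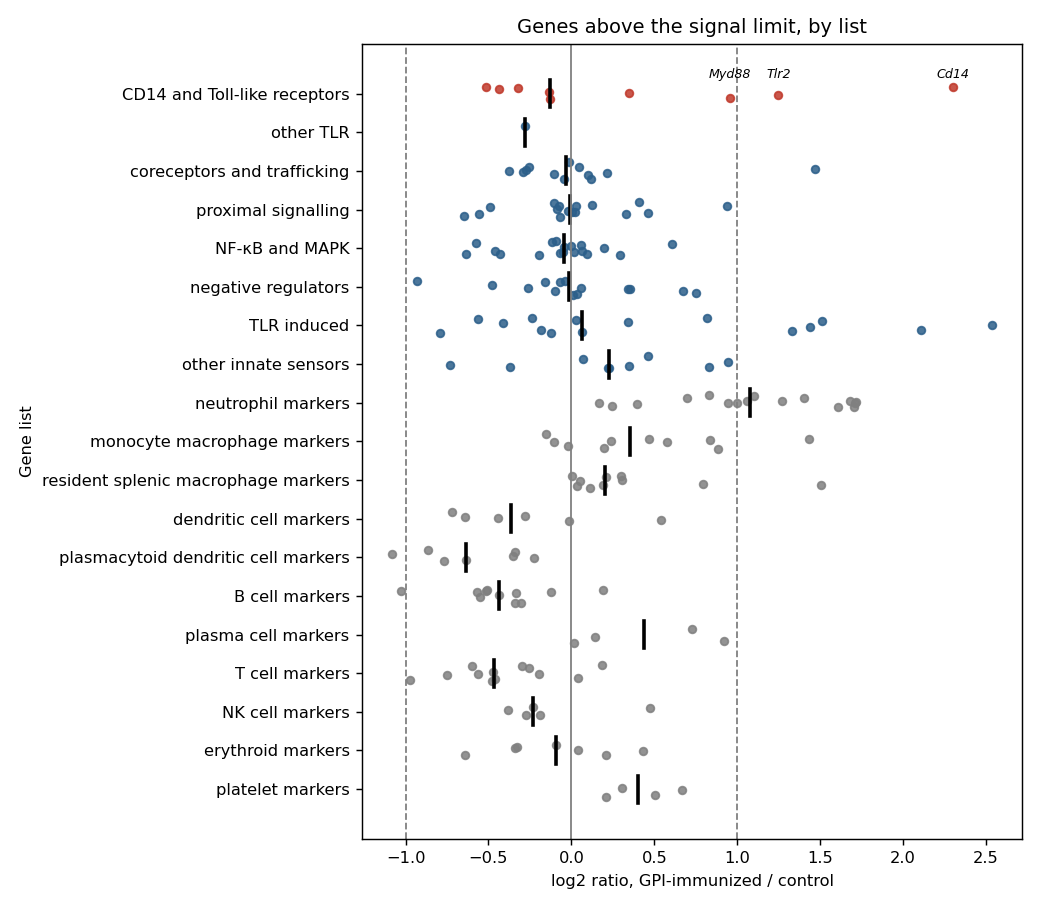
Log2 ratio, GPI-immunized over control (horizontal axis), for genes with at least 1 signal of 50.2 or more, by list (vertical axis), with 1 point per gene from 1 array per group, bars at the list medians and dashed lines at the 2-fold limits. In the top row, Tlr2 (1.25) and Myd88 (0.96) lie in the range of the neutrophil markers (median 1.08) and Cd14 (2.30) beyond it, while the other genes of that row lie between -0.51 and 0.35. Tlr2 and Myd88 lie also in the ranges of the monocyte and macrophage markers and of the resident splenic macrophage markers, and Cd14 beyond both.

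Markers of cell types differed between the same 2 arrays. All 16 neutrophil markers with a probe set (of 21) had ratios above 1, from 1.12 to 3.28. Of these, 9 were counted as higher, against 2.23% of all genes that passed. Their median log2 ratio was 1.08, and their summed signal (here and for the other cell types, over every marker with a probe set) was 53271.4 in GPI-immunized splenocytes, against 35764.8 in control splenocytes. Mmp8, a collagenase, had a ratio of 3.28, Mmp9, a gelatinase, one of 3.26, the chemokine receptor Cxcr2 3.26 and Cd177 3.20. Cxcr2 passed the limit only through the GPI-immunized array (76.6, against 23.5 in control splenocytes), and its ratio was 1.53 after low signals were raised to the 50th percentile. The number counted as higher was 8 in that setting and under each of the 3 other scalings. The ratio of Cd14 lay above all of these, although a dimmer probe set of Mmp9 gave 5.40, and those of Tlr2 and Myd88 within their range. Of the 10 monocyte and macrophage markers above the limit (13 in the list), 7 had ratios above 1 and 1, F13a1 (2.70), was counted as higher, with a median log2 ratio of 0.35 and summed signals of 10144.9 in GPI-immunized splenocytes, against 8036.5 in control splenocytes. Of the 10 resident splenic macrophage markers above the limit, all had ratios above 1 (7 under the 3 other scalings) and 1, Cd5l (2.84), was counted as higher. Their median log2 ratio was 0.20 and their summed signals were 5665.6 in GPI-immunized splenocytes, against 4696.9 in control splenocytes. The ratios ranged from 0.901 to 2.70 for the monocyte and macrophage markers, and from 1.00 to 2.84 for the resident ones. Tlr2 and Myd88 lay within these ranges too, and Cd14 above them. The part of these cell types in the ratios of Cd14, Tlr2 and Myd88 was not tested.

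Markers of the cells in which CD180, TLR7 and TLR9 are prominent had mostly ratios below 1. Of 11 B cell markers above the limit (14 in the list), 10 had ratios below 1, with a median log2 ratio of -0.44 over the 11. Among them 1, Fcer2a (0.491), was counted as lower, against 0.445% of all genes that passed. The summed signals of the list were 14446.6 in GPI-immunized splenocytes, against 18543.1 in control splenocytes. The ratio of Fcer2a was 0.543 as the mean of its probe sets, which ends this call. All 7 plasmacytoid dendritic cell markers above the limit (10 in the list) had ratios below 1. Among them 1, Cox6a2 (0.473), was counted as lower, again against 0.445% of all genes. Cox6a2 passed only through the control array (36.8 in GPI-immunized splenocytes, against 77.8 in control splenocytes), and after raising low signals to the 50th percentile its ratio was 0.645 and none of the 7 was counted as lower. Ccr9 likewise passed only through the control array (45.1 in GPI-immunized splenocytes, against 82.1 in control splenocytes). A gene that passes only in this way has a ratio below 1 by the rule. Probe sets of Tcf4 ranged from 0.789 to 4.71, and those of Irf8 from 0.854 to 1.01. The median log2 ratio of the 7 markers was -0.64, and the summed signals of the list were 3925.1 in GPI-immunized splenocytes, against 4974.6 in control splenocytes. Most of this sum came from Ly6d (1916.9 in GPI-immunized splenocytes, against 2447.2 in control splenocytes) and Irf8 (1345.7, against 1575.9). The sum thus says little about the dimmer markers, and the part of B cells in it was not tested. Of 6 dendritic cell markers above the limit, 5 had ratios below 1 (median -0.36). The ratios of Tlr7 (0.800), Unc93b1 (0.817) and Ly86 (0.828) lay within the range of the B cell markers, 0.491 to 1.14. They lay also within those of the T cell (0.509 to 1.14), natural killer cell (0.766 to 1.39), dendritic cell (0.606 to 1.46) and plasmacytoid dendritic cell markers (0.473 to 0.854). The ranges thus do not point to B cells in particular. They were nearer to 1 than the median ratio of these markers, 0.740. No signal above 14.1 was found for 2 resident macrophage markers (Siglec1 and Marco) and 1 plasmacytoid dendritic cell marker (Klk1), while each of the neutrophil, monocyte and macrophage, and B cell markers with a probe set had one. The part of these cells in the ratios was not tested.

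Of the other cell types, 10 of 12 T cell markers had ratios below 1 (median log2 ratio -0.47) and 4 of 5 natural killer cell markers (median -0.23). The 7 erythroid markers had a median of -0.09, the 4 plasma cell markers 0.44 and the 4 platelet markers 0.40. None of these 5 lists held a gene counted as higher or lower, against 2.23% and 0.445% of all genes that passed. Each of the 3 other scalings brought 1 T cell marker, Cd3e (0.509), under a ratio of 0.5.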

How the data were processed

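Splenocyte RNA of GPI-immunized and control mice was read on 1 array each, and arrays were assigned to groups from the sample labels. The authors deposited 1 intensity per probe set on a linear scale, made with what the methods call gene expression software. How probes were summarized, arrays scaled and detection called was not given in the sources used here. According to the labels cDNA was labelled, whereas the methods of the paper describe biotinylated cRNA.

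Of 22626 probe sets besides 64 controls, 20380 have 1 gene symbol, 691 several and 1555 none, and those without exactly 1 were not used. No coordinates of the arrayed genes are given, since no build is named for the array, and promoters come from RefSeq (GRCm38.p6). The 3 signals of 0 were set to 0.1 on the log scale. Ratios were formed without further scaling, and the spread between probe sets was taken over genes with several probe sets above the signal limit. The number of arrays limits the precision. The background was judged from 27 control probe sets named for genes of Bacillus subtilis.

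The genes, the gene lists, the alternatives and the rule for named genes were chosen with earlier results of these data known. The rule takes all 10 genes, every further TLR, co-receptor and trafficking gene, up to 4 genes of each other list furthest from a ratio of 1, and the 5 genes closest to Cd14. Some genes under the rule are left unprinted, and genes named beyond it were chosen after their values were seen. The lists cover further TLRs, co-receptors and trafficking, proximal signalling, NF-κB and kinases, negative regulators, TLR-induced genes, other innate sensors, and markers of 11 cell types. List sizes count symbols, and some lists hold an older and a current symbol of the same gene. Examples are Irg1 and Acod1, Il8rb and Cxcr2, and Emr1 and Adgre1, where the older symbol had no probe set.

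The ratio step was tested on simulated data (12393 genes, 1 array per group). It recovered 90.0% of 100 genes changed 2.5-fold and 98.0% of 100 changed 4-fold, with simulated noise equal to the spread between probe sets and none between mice. The alternatives were 3 scalings, 3 floors on low signals, the mean of all probe sets, leaving out shared probe sets, other filters and a 3-fold limit. Python 3.11.15, numpy 2.4.6, pandas 2.3.3, statsmodels 0.14.6 and matplotlib 3.10.9 were used.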

Additional observations from a re-analysis of the deposited data

How the results depend on the processing

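Across the 8 alternatives that give a ratio, the 10 genes had 80 alternative ratios. Of these, 79 moved by less than the SD between probe sets and 1 by more. The latter was Tlr1, with a ratio of 0.866 when signals were raised to the 50th percentile. Many of the 80 could not move. The lowest of the 3 floors lay under every signal of the 10 genes, and leaving out shared probe sets removed none of their brightest ones. The mean of all probe sets could change only Tlr4 and Tlr7, and the floor at the highest bacterial control only Tlr9. For Cd14, Tlr2 and Myd88, only the 3 scalings could change the ratio. Division by the median shifted all genes by the same factor. The count of 79 thus says little about stability. The ratio of Cd14 was between 4.63 and 4.93, of Tlr2 between 2.22 and 2.38 and of Myd88 between 1.82 and 1.94, so that Myd88 stayed under 2 throughout. The number of genes counted as higher was 1 under a filter at the 75th percentile, passed by Cd14 and Myd88 alone (1.81% of all genes that passed were higher), and 1 at a 3-fold limit (0.503% of all genes), Cd14 in both cases. The median log2 ratio was 1.63 with that filter, over 2 genes. The number counted as lower was 0 in every setting. Over the arrays 155 genes were higher and 31 lower, and these counts became 70 and 5 under the filter at the 75th percentile, 1266 and 1105 unfiltered, 35 and 3 at 3-fold, and 111 and 47 after division by the median. No paired analysis was possible because each group has 1 array, and for the same reason no array could be left out. Signals near the bacterial controls (Tlr9, and the dimmer probe sets of Tlr7) limit what can be read from those genes.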

Other observations

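A list of further innate sensors (cytosolic sensors, their adaptors and peptidoglycan recognition proteins) was also read. Of its 16 genes, 9 had a probe set and all 9 passed the signal limit. None was counted as higher or lower, against 2.23% and 0.445% of all genes that passed. The median log2 ratio of the 9 was 0.23. The ratios were above 1 for 7 of them, and for 6 under the 3 other scalings. Pglyrp1, a peptidoglycan recognition protein of neutrophil granules, had a signal of 1019.8 in GPI-immunized splenocytes, against 530.8 in control splenocytes, a ratio of 1.92. Zbp1, a sensor of nucleic acids that interferon induces, had 108.2 in GPI-immunized splenocytes, against 60.9 in control splenocytes, a ratio of 1.78, and its other probe set gave 1.53. Mavs, the adaptor of cytosolic RNA sensors, had a ratio of 1.38, although its other probe set gave 0.872. Aim2, a sensor of cytosolic DNA, went the other way, with 71.0 in GPI-immunized splenocytes, against 117.9 in control splenocytes, a ratio of 0.602.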
